A study of Mus musculus with 6 samples.

Results

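Long noncoding RNAs known from neural cells were followed in cultured mouse neural stem cells. They were Malat1, Neat1, Gas5, Snhg1, Snhg12, Rmst, Miat, Sox2ot, Dlx6os1 and Pantr1, 10 of the 27694 genes to which the isoforms of the deposited table were summed. They were taken by gene name, with earlier results of these data known. The table listed 115 isoforms for them, out of 95506 isoforms that match or overlap the exons of a named gene. Of the 10 RNAs, 7 had a mean of at least 1 FPKM, a level per kilobase of transcript that is also scaled to library depth, and could be tested. Miat, Rmst and Dlx6os1 lay below that level.

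The study compared 3 cultures labelled vimentin knockout (KO) with 3 cultures labelled wild type (WT). All 6 came from the C57/Bl6 strain, carried no treatment, and grew in a serum-free medium with B27, FGF-2 and EGF, each growth factor at 20 ng/mL. The labels do not name the knockout allele, nor do they say whether each culture had its own animal, and p-values below therefore cover only the variation among these samples, part of which may be technical. Total RNA was depleted of ribosomal RNA rather than selected for poly(A), and sequencing was paired-end and kept the strand.

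Depth was between 4.26 and 5.43 gigabases per library, as the ratio of coverage to FPKM gives it. Vim RNA, the targeted gene, went against the labels: it was at 650, 732 and 624 FPKM in the libraries labelled KO, against 191, 179 and 186 FPKM in those labelled WT. Directions are given as labelled throughout. Of 10 neural stem cell markers, all but Prom1 had a mean of at least 1 FPKM, and the list without Vim summed to 1110 to 1206 FPKM in the libraries labelled KO and 894 to 1128 FPKM in those labelled WT, which overlap. With Vim, which is one of the 10, the sums were 1789 to 1856 FPKM in the libraries labelled KO and 1073 to 1319 FPKM in those labelled WT. Those of the interneuron lineage summed to 3.10 to 3.83 FPKM in the libraries labelled KO and 2.99 to 4.91 FPKM in those labelled WT, and Dlx2, Dlx5, Dlx6 and Gad2 stayed below 0.5 FPKM. The oligodendrocyte lineage list summed to 338 to 391 FPKM in the libraries labelled KO and 517 to 581 FPKM in those labelled WT, most of it Olig1 (298 to 352 FPKM labelled KO, 478 to 547 FPKM labelled WT). Olig2 ran the other way, with 14.5 to 18.8 FPKM in the libraries labelled KO and 2.29 to 4.02 FPKM in those labelled WT, and Cspg4 overlapped. The neuron list summed to 88.9 to 137 FPKM in the libraries labelled KO and 66.7 to 179 FPKM in those labelled WT. Most of it was Map2 (75.9 to 123 FPKM labelled KO, 62.2 to 161 FPKM labelled WT). Only 2 of its 8 markers had a mean of at least 1 FPKM, and Rbfox3, Snap25, Syt1 and Stmn2 were at or near 0. The astrocyte sums also overlapped (164 to 182 FPKM labelled KO, 147 to 189 FPKM labelled WT), but single astrocyte markers did not. Gfap had 24.4 to 29.6 FPKM in the libraries labelled KO and 75.8 to 80.7 FPKM in those labelled WT, and Aqp4 had 2.30 to 2.80 FPKM in the libraries labelled KO and 10.6 to 11.2 FPKM in those labelled WT. Aldh1l1 lay the other way, with 68.5 to 69.0 FPKM in the libraries labelled KO and 1.83 to 4.46 FPKM in those labelled WT. The part of these marker differences in the values given here was not tested. None of the microglial, vascular or fibroblast markers reached a mean of 1 FPKM. WT 2 stood apart: isoforms in introns, between genes or on the other strand, which were left out of the gene sums, took 16.4% of its FPKM. They took 3.99% to 4.89% in the libraries labelled KO, and 4.46% and 5.49% in WT 3 and WT 1. Log2 fold changes of the tested RNAs that rest on WT 2 are given without it as well, while isoform shares and orders of libraries are not.

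As background, long noncoding RNAs act as RNA rather than as templates for protein. Malat1 and Neat1 stay in the nucleus, Malat1 in the speckles that store splicing factors and Neat1 as the scaffold of paraspeckles. Gas5, Snhg1 and Snhg12 carry small nucleolar RNAs in their introns, which guide the modification of ribosomal RNA, and their spliced transcripts are rapidly decayed. Sox2ot, Pantr1 and Dlx6os1 lie beside or around genes for neural transcription factors, and Rmst and Miat are linked to neuronal differentiation.

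None of the 7 tested RNAs passed the test between the libraries labelled KO and those labelled WT. In limma on log2(FPKM + 1), with Benjamini-Hochberg adjustment, their adjusted p ran from 0.353 for Gas5 to 0.981 for Sox2ot, and 0 of the 7 had an unadjusted p under 0.05. Over all genes, 833 of 12080 (6.9%) passed an adjusted p of 0.05, and 2972 (24.6%) had an unadjusted p under 0.05. With estimated reads and voom in place of FPKM, 0 of the 7 passed as well. The FPKM values of the libraries labelled KO and WT overlapped for each of the 7, while over all tested genes they did not overlap for 33.3%. Of the 115 isoforms, 40 had a mean of at least 1 FPKM and none was called (smallest adjusted p = 0.484, limma), against 0.139% of all tested isoforms, and 1 had an unadjusted p under 0.05, as did 10.2% of all tested isoforms. With 3 libraries a side the intervals were narrow for some of these RNAs and wide for others, so the lack of a call does not show that levels were alike.

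Levels spanned a wide range. FPKM is per length, but a sum over isoforms depends on how reads were shared among short and long isoforms. The order below is therefore that of the listed sums. Malat1 had the highest median over the 6 libraries, 141 FPKM, and its range of 75.9 to 1323 FPKM met that of Snhg1 (median 72.9, range 60.5 to 80.8 FPKM). Snhg1 lay above Gas5 in each library, and Gas5 (median 42.5, range 31.9 to 46.0 FPKM) overlapped with Pantr1 (29.4, 16.7 to 44.4 FPKM). Pantr1 in turn overlapped with Sox2ot (14.5, 11.7 to 25.7 FPKM). Snhg12 (4.99, 2.90 to 8.33 FPKM) lay below Sox2ot in range and overlapped with Neat1 (3.17, 1.41 to 12.2 FPKM). Miat (0.676, 0.516 to 1.32 FPKM) lay below every Neat1 value, and Rmst and Dlx6os1 were at or near 0.

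**Figure D1:**
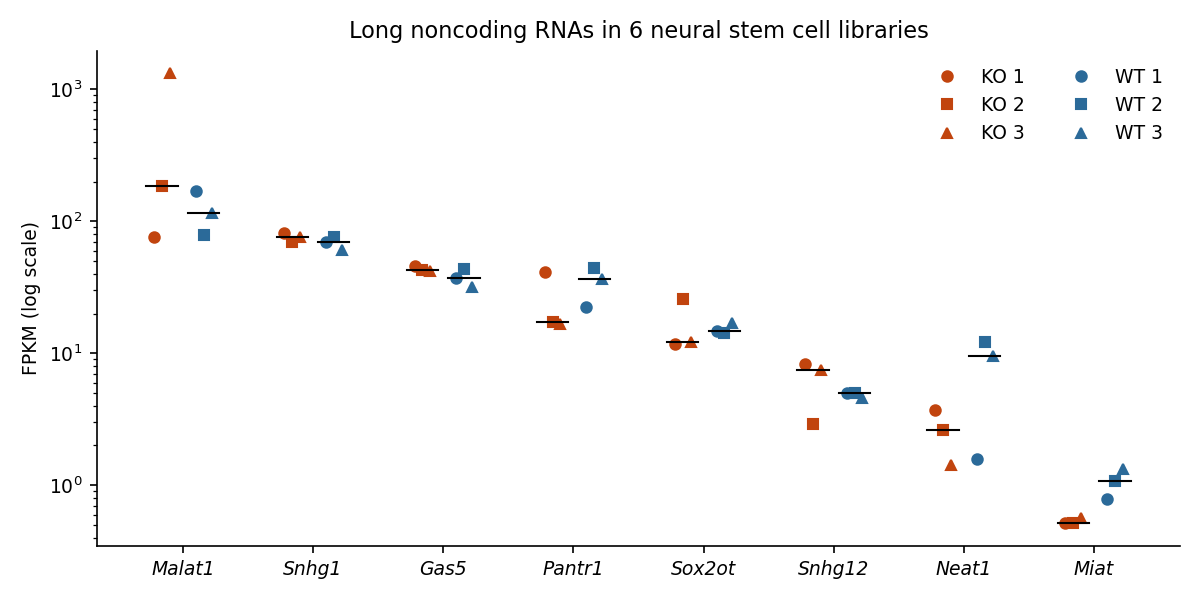
FPKM on a log axis for the 8 RNAs with a mean above 0.5 FPKM, with the 3 libraries labelled KO (red) left of the 3 labelled WT (blue) for each RNA and a line at each median. Malat1 in KO 3 (1323 FPKM) stands far above the other libraries, and for Miat alone the values labelled KO all lie below those labelled WT. Over all tested genes, 33.3% did not overlap in either direction.

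Malat1 and Neat1 neighbour each other on the minus strand of chromosome 19, and both end, as background, in a processed tail with no poly(A) that a triple helix of U-rich and A-rich stretches protects. The sequences of these ends are shown because they are the part that Malat1 and Neat1 share, and because the assembled Malat1 isoforms described next run past it. They were read from GENCODE release M21 (GRCm38), whose coordinates for both transcripts are those of the table. The Malat1 stretch lies at chr19:5795982-5796081, and it stops 292 bases before the annotated end of ENSMUST00000172812. The Neat1 stretch lies at chr19:5824708-5824807, the last 100 bases of ENSMUST00000173672. Both are on the minus strand and written 5′ to 3′ as DNA. Capitals mark each run of at least 10 bases that the last 100 bases of Neat1 share with the last 400 bases of Malat1, on the transcribed strand.
Malat1: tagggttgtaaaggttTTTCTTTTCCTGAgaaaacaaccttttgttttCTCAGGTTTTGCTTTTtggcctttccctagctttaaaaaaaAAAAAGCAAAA
Neat1: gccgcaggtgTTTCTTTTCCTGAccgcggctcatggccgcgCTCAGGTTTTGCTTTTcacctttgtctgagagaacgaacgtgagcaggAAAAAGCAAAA
The 3 runs stand in the same order in both RNAs, with lengths of 13, 16 and 11 bases, and the first and second are rich in U while the last is rich in A. Of 141767 GENCODE transcripts, these 2 alone hold all 3 runs. TTTCTTTTCCTGA is found in 35 transcripts (0.0247%), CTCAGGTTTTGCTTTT in 2 (0.00141%) and AAAAAGCAAAA in 618 (0.436%).

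Malat1 stood at 75.9, 185 and 1323 FPKM in the libraries labelled KO and at 168, 78.0 and 115 FPKM in those labelled WT. KO 3 was the highest, KO 1 was the lowest, and KO 2 lay just above the libraries labelled WT. Its log2 fold change was 1.20 (95% interval -1.34 to 3.75, adjusted p = 0.526, limma), against 0.048 without KO 3 (adjusted p = 0.968) and 2.10 without KO 1 (adjusted p = 0.293). The mean of 528 ± 690 FPKM in the libraries labelled KO, against 120 ± 45.4 FPKM in those labelled WT (SD, n = 3 each), rested on 1 library. The spread of Malat1 within groups, an SD of 1.54 on the log2 scale, was larger than that of 97.7% of tested genes.

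The isoforms of Malat1 show where that spread lay. The annotated transcript of 1 exon and 6983 bases had 17.4, 122 and 1268 FPKM in the libraries labelled KO and 148, 29.1 and 105 FPKM in those labelled WT. It held 22.9% to 95.9% of the FPKM of Malat1 in the libraries labelled KO and 37.3% to 91.7% in those labelled WT. The annotated isoforms of 2 exons varied less, with 25.4, 27.2 and 21.0 FPKM in the libraries labelled KO against 20.3, 26.1 and 9.47 FPKM in those labelled WT.

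Assembled isoforms that run on past the annotated 3′ end were also listed for Malat1. MSTRG.24101.1 and MSTRG.24101.2 extend 2412 and 2384 bases beyond it, and their sum was 33.1, 35.6 and 33.7 FPKM in the libraries labelled KO, against 0, 22.8 and 0.0014 FPKM in those labelled WT (chosen after the values were seen, and not tested as a sum). All 3 libraries labelled KO lay above WT 2, the highest of those labelled WT. As single isoforms both missed the threshold (adjusted p = 0.484 and 0.530, limma). Leaving out the transcript of 1 exon gave a log2 fold change of 1.42 for Malat1 (adjusted p = 0.184, limma), an alternative added after the data were seen. How reads of one continuous RNA were shared among nested isoforms is an estimate, so the isoform values carry that error beside the error between libraries.

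Neat1 stood at 3.72, 2.62 and 1.41 FPKM in the libraries labelled KO and at 1.59, 12.2 and 9.51 FPKM in those labelled WT. WT 2 and WT 3 were the highest, and WT 1 lay among the libraries labelled KO. This gave a log2 fold change of -1.04 (95% interval -2.66 to 0.58, adjusted p = 0.392, limma), -1.77 without WT 1 (adjusted p = 0.0638) and -0.59 without WT 2 (adjusted p = 0.637). The spread within groups exceeded that of 94.4% of tested genes. In such cultures, fewer cells with an RNA and less RNA per cell cannot be told apart.

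Neat1 has a short form and a long form of more than 20 kb, and as background only the long form builds paraspeckles. Isoforms over 20 kb held all of the Neat1 FPKM in KO 1, KO 2, WT 2 and WT 3, 97.4% in KO 3 and 69.6% in WT 1. The short annotated isoform ENSMUST00000174287 stood at 0, 0 and 0.036 FPKM in the libraries labelled KO and at 0.482, 0 and 0 FPKM in those labelled WT. It lies within the span of the long form, and the listed zeros do not show that the short form was absent. The long forms were not the same in each library: in WT 2 the assembled isoform MSTRG.24109.4 held 90.2% of the FPKM, while in WT 3 the annotated ENSMUST00000173672 held 91.0%.

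**Figure D2:**
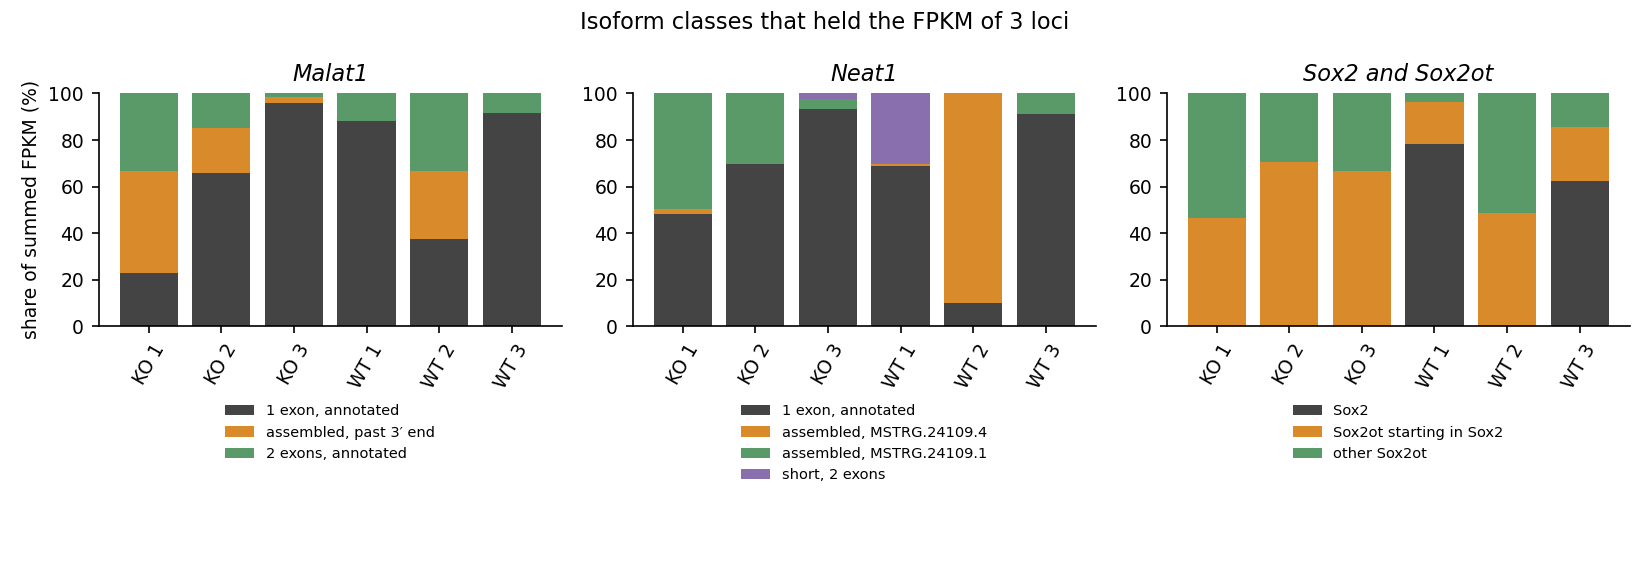
Share of summed FPKM, in percent, held by classes of isoforms in each library at the Malat1, Neat1 and Sox2 loci, with the libraries labelled KO on the left. The Malat1 transcript of 1 exon took 95.9% in KO 3 and 22.9% in KO 1, and Sox2 itself has a share only in WT 1 and WT 3.

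The protein partners of these nuclear RNAs were described from gene lists. Of 25 paraspeckle proteins, all tested, none was called (smallest adjusted p = 0.0943, limma) and 5 had an unadjusted p under 0.05, against 24.6% of all tested genes. Their median log2 fold change was -0.020, against -0.020 over all tested genes. Nono, a core paraspeckle protein, was at 108, 80.0 and 128 FPKM in the libraries labelled KO and 147, 172 and 160 FPKM in those labelled WT (adjusted p = 0.108, limma). Taf15, an RNA-binding protein, was at 57.6, 51.8 and 44.5 FPKM in the libraries labelled KO and 24.9, 38.7 and 33.2 FPKM in those labelled WT (adjusted p = 0.0943, limma). These 2 had the smallest p of the 25, and for both the groups did not overlap. Of the 25, 3 had all libraries labelled KO higher and 5 had all lower. Over all tested genes, 33.3% did not overlap.

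Of 22 nuclear speckle proteins, all tested, none was called (smallest adjusted p = 0.177, limma) and 3 had an unadjusted p under 0.05, against 24.6% of all tested genes. Of the 22, 16 had a negative fold change and the median was -0.17. Rnps1, a splicing activator, was at 28.6, 30.2 and 24.7 FPKM in the libraries labelled KO and 30.5, 45.2 and 54.2 FPKM in those labelled WT. The splicing kinase Clk4 was at 22.4, 23.6 and 23.7 FPKM in the libraries labelled KO and 26.9, 28.4 and 25.6 FPKM in those labelled WT, and shares its assembled locus with another gene. Neither passed the test (adjusted p = 0.177 and 0.194, limma).

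Gas5, Snhg1 and Snhg12 are hosts of small nucleolar RNAs, a class whose genes, as background, often begin transcription at a run of pyrimidines and respond to growth conditions as ribosomal protein genes do. The sequences around their RefSeq start sites are shown with that of Malat1 for comparison, because the isoform starts in the table can be read against them. They come from RefSeq (GRCm38.p6), whose promoter table holds 6 of the 10 RNAs, and run from 50 bases before the start, 5′ to 3′. For Gas5 RefSeq holds a further start besides the one used, 161035166, and isoforms near that further start were not counted separately. Gas5 lies at chr1:161035116-161035215 on the plus strand, Snhg1 at chr19:8723437-8723536 on the plus strand, Snhg12 at chr4:132308628-132308727 on the plus strand and Malat1 at chr19:5802623-5802722 on the minus strand. Capitals mark TATA between 40 and 16 bases before the start and CCTT within 10 bases of the start, both on the transcribed strand.
Gas5: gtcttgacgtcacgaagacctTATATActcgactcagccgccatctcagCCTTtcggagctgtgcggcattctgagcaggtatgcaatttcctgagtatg
Snhg1: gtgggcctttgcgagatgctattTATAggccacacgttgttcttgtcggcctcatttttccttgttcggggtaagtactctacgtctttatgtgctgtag
Snhg12: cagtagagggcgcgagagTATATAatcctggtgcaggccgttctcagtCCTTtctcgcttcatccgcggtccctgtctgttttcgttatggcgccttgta
Malat1: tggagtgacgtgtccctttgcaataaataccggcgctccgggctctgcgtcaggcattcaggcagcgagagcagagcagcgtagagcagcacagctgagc
TATA was found in all 3 host genes and not in Malat1, and 5.91% of 32851 RefSeq promoters hold it in the same window. CCTT was found in Gas5 and Snhg12, and 7.90% of the promoters hold it there, or 8.63% on the other strand, where none of the 4 holds it. Both motifs were chosen with these sequences in view.

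Isoform starts in the table sat near the RefSeq start used for Gas5 and Snhg12 but less so for Snhg1. Isoforms starting within 50 bases of it held 70.2%, 73.4% and 63.5% of the Gas5 FPKM in the libraries labelled KO and 66.8%, 57.4% and 68.8% in those labelled WT. For Snhg12 the shares were 98.7%, 95.8% and 93.3% in the libraries labelled KO and 88.6%, 85.5% and 90.4% in those labelled WT. For Snhg1 they were 12.5%, 13.8% and 8.51% in the libraries labelled KO and 10.4%, 4.81% and 9.22% in those labelled WT. The leading Snhg1 isoform, ENSMUST00000205909, starts 518 bases downstream of the RefSeq start and alone held 43.0% to 60.7% of the Snhg1 FPKM in the libraries labelled KO and 63.2% to 64.8% in those labelled WT. It was at 40.7 ± 5.68 FPKM in the libraries labelled KO and 44.1 ± 5.34 FPKM in those labelled WT (SD, n = 3 each).

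Gas5, on chromosome 1, had 46.0, 42.6 and 42.3 FPKM in the libraries labelled KO and 37.1, 43.7 and 31.9 FPKM in those labelled WT. WT 2 lay among the libraries labelled KO, and the other 2 labelled WT lay below them. It gave a log2 fold change of 0.22 (95% interval -0.095 to 0.54, adjusted p = 0.353, limma), 0.33 without WT 2 (adjusted p = 0.125) and 0.11 without WT 3 (adjusted p = 0.588). The leading isoform among its 30, ENSMUST00000162558 with 12 exons, held 20.7% to 21.5% of the FPKM in the libraries labelled KO and 16.9% to 22.4% in those labelled WT.

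Snhg1 had 80.8, 70.0 and 75.9 FPKM in the libraries labelled KO and 69.9, 75.7 and 60.5 FPKM in those labelled WT, with the groups overlapping. Its log2 fold change was 0.14 (95% interval -0.14 to 0.41, adjusted p = 0.50, limma), and with 1 library left out it ran from 0.052 without WT 3 to 0.21 without WT 2. Its neighbour Slc3a2, the heavy chain of amino acid transporters, starts close by on the opposite strand and was called higher. Slc3a2 had 391, 365 and 362 FPKM in the libraries labelled KO and 215, 208 and 229 FPKM in those labelled WT (log2 fold change 0.78, SE 0.084, adjusted p = 0.00811, limma). The difference between the 2 neighbours was not tested.

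Snhg12, on chromosome 4, had 8.33, 2.90 and 7.40 FPKM in the libraries labelled KO and 5.00, 4.99 and 4.60 FPKM in those labelled WT. The libraries labelled WT lay close together, between KO 2 below them and KO 1 and KO 3 above. This gave a log2 fold change of 0.20 (95% interval -0.65 to 1.05, adjusted p = 0.768, limma), and it was -0.034 without KO 1, 0.041 without KO 3 and 0.60 without KO 2. Between 70.2 and 182 estimated reads stood behind each value labelled KO and between 101 and 139 behind each labelled WT, the fewest of the tested RNAs.

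Other genes of the same class were read from a list. Of 21 noncoding host genes of small nucleolar RNAs, 16 were tested, Gas5, Snhg1 and Snhg12 among them, and none was called (smallest adjusted p = 0.106, limma). An unadjusted p under 0.05 was found for 3 of them, against 24.6% of all tested genes. Of the 16, 13 had a positive fold change, and the median was 0.20, against -0.020 over all tested genes. Dancr was at 2.33, 3.04 and 1.73 FPKM in the libraries labelled KO and 1.04, 1.21 and 0.569 FPKM in those labelled WT (adjusted p = 0.106, limma). Epb41l4aos was at 25.2, 20.8 and 20.1 FPKM in the libraries labelled KO and 28.5, 50.9 and 34.2 FPKM in those labelled WT (adjusted p = 0.124, limma).

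Among proteins that bind small nucleolar RNAs and protein-coding hosts of them, 1 of 24 tested genes rose, 1 fell and 22 did not pass, with a median of -0.074. Over all tested genes 3.65% were higher and 3.25% lower by the same test, so these counts are near the background. Nop56, a core protein of box C/D particles, rose, with 38.2, 36.8 and 40.05 FPKM in the libraries labelled KO and 18.3, 14.9 and 20.3 FPKM in those labelled WT (log2 fold change 1.07, SE 0.13, adjusted p = 0.0096, limma). Hspa8, a constitutive HSP70 chaperone whose introns also carry such RNAs, fell, with 355, 289 and 284 FPKM in the libraries labelled KO and 606, 663 and 798 FPKM in those labelled WT (log2 fold change -1.15, SE 0.15, adjusted p = 0.0127, limma). The Hspa8 call was lost without KO 2 (adjusted p = 0.0634) and without KO 3 (adjusted p = 0.0583). Of 16 factors of nonsense-mediated decay, the pathway that degrades spliced Gas5 and its kin, none was called (smallest adjusted p = 0.0677, limma) and 1 had an unadjusted p under 0.05, against 24.6% of all tested genes. The median was 0.037. Rbm8a, a subunit of the exon junction complex, was at 6.74, 9.92 and 6.65 FPKM in the libraries labelled KO and 2.47, 2.60 and 4.65 FPKM in those labelled WT, and shares its assembled locus with another gene (adjusted p = 0.0677, limma). With a library left out, Rbm8a passed in 1 of 6 fits, that without WT 3 (adjusted p = 0.0486, highest of the 6 0.181, limma). The decay factor Upf2 was at 4.88, 6.20 and 5.66 FPKM in the libraries labelled KO and 8.05, 7.57 and 6.06 FPKM in those labelled WT (adjusted p = 0.258, limma).

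Sox2ot surrounds Sox2, the gene of a transcription factor that keeps neural stem cells undifferentiated, on the same strand of chromosome 3. Sox2ot stood at 11.7, 25.7 and 12.2 FPKM in the libraries labelled KO and at 14.8, 14.2 and 17.001 FPKM in those labelled WT. KO 2 was the highest and KO 1 and KO 3 the lowest. It gave a log2 fold change of 0.017 (95% interval -0.73 to 0.77, adjusted p = 0.981, limma), and -0.33 without KO 2 (adjusted p = 0.258).

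Much of what was listed as Sox2ot lay in transcripts that begin inside Sox2. The assembled isoform MSTRG.30192.23 starts at 34650405, the first base of the single Sox2 exon in the table, and MSTRG.30192.25 starts at 34651645, within that exon, which ends at 34652461. Together they held 46.6%, 70.5% and 66.8% of the Sox2ot FPKM in the libraries labelled KO and 84.1%, 48.4% and 61.1% in those labelled WT. Sox2 itself was listed at 0 in each library labelled KO and at 53.3, 0 and 28.4 FPKM in those labelled WT (adjusted p = 0.212, limma). With a library left out, Sox2 passed in 1 of 6 fits, that without WT 2 (adjusted p = 0.00681, highest of the 6 0.387, limma). Where Sox2 was listed at 0, the isoforms that begin inside it had 5.46, 18.2 and 8.13 FPKM in the libraries labelled KO and 6.88 FPKM in WT 2. Where Sox2 was listed above 0, they had 12.4 FPKM in WT 1 and 10.4 FPKM in WT 3, within the range of the others. The zeros are listed values and do not show that Sox2 RNA was absent. Without the isoforms that start in Sox2, Sox2ot had 6.25, 7.58 and 4.05 FPKM in the libraries labelled KO and 2.35, 7.33 and 6.61 FPKM in those labelled WT (log2 fold change 0.19, adjusted p = 0.821, limma, an alternative added after the data were seen). The table gives no exon positions for assembled isoforms, so how much of each lies in Sox2 was not tested.

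Pantr1 lies on chromosome 1 and, as annotated, starts 926 bases from Pou3f3, a neural transcription factor gene on the opposite strand. Its sum also holds the assembled isoform MSTRG.598.2, whose span runs across Pou3f3. That isoform had 0, 1.69 and 1.82 FPKM in the libraries labelled KO and 1.21, 2.09 and 0 FPKM in those labelled WT. Pantr1 had 41.5, 17.3 and 16.7 FPKM in the libraries labelled KO and 22.5, 44.4 and 36.4 FPKM in those labelled WT. In FPKM, KO 1 lay with WT 2 and WT 3 at the top, and KO 2 and KO 3 were the lowest. From FPKM, the log2 fold change of Pantr1 was -0.51 (95% interval -1.54 to 0.52, adjusted p = 0.509, limma), -0.92 without KO 1 (adjusted p = 0.198) and -0.30 without WT 2 (adjusted p = 0.738). Estimated reads, which are not per length or scaled to depth, were 1136, 1283 and 1360 in the libraries labelled KO. Those labelled WT had 1400, 1829 and 2174. By that measure KO 1 was the lowest library, and all labelled KO lay below all labelled WT. In FPKM, 33.3% of all tested genes did not overlap between the groups, and the share in estimated reads was not counted. With voom on the estimated reads the log2 fold change of Pantr1 was -0.40 (unadjusted p = 0.0144, adjusted p = 0.0959, limma). In that fit, 3168 of 12080 genes had an unadjusted p under 0.05.

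The FPKM of Pou3f3 alone did not follow that of Pantr1 over the libraries. Pou3f3 stood at 1.22, 0.564 and 3.22 FPKM in the libraries labelled KO and 4.32, 0.655 and 4.20 FPKM in those labelled WT (adjusted p = 0.617, limma), but an assembled isoform of the overlapping gene Gm20646, MSTRG.613.1, spans it whole. The sum of Pou3f3 and that isoform was 10.3, 1.39 and 5.69 FPKM in the libraries labelled KO and 6.02, 11.1 and 9.35 FPKM in those labelled WT. This sum was chosen after its values were seen and was not tested. In FPKM, WT 2, KO 1 and WT 3 stood highest, in this order, for this sum and for Pantr1. Pou3f3 alone was highest in WT 1, WT 3 and KO 3, and KO 1 was the lowest for Pantr1 in estimated reads.

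**Figure D3:**
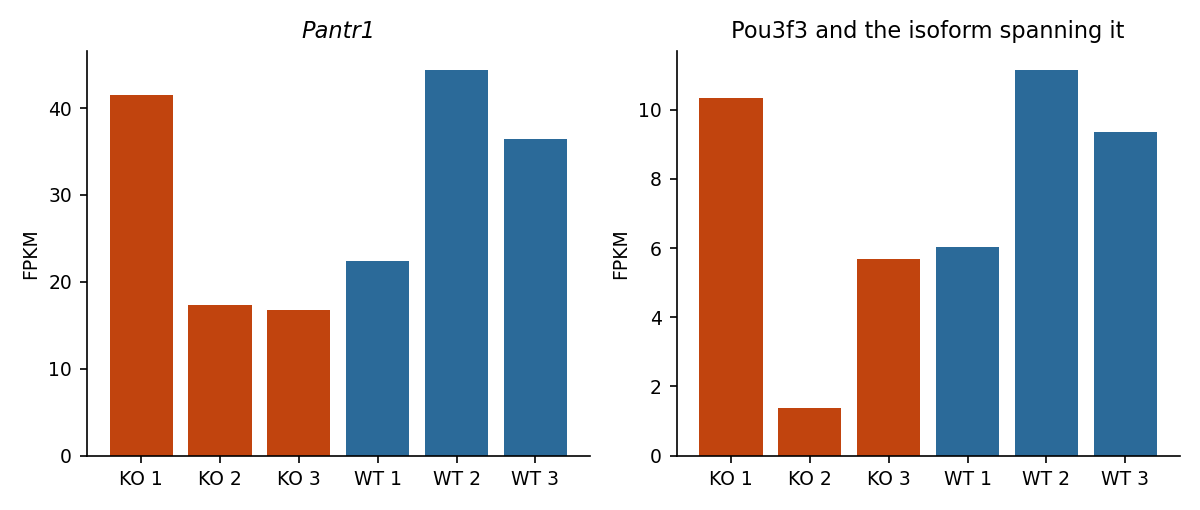
FPKM of Pantr1 (left) and of Pou3f3 summed with the assembled isoform that spans it (right) in each library, with the libraries labelled KO left of those labelled WT. KO 1, WT 2 and WT 3 are the 3 highest bars in both panels. The sum on the right was chosen after its values were seen, and Pou3f3 alone was highest in WT 1, WT 3 and KO 3.

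Pantr1 was spread over 18 isoforms. The leading ENSMUST00000188153 held 39.8% of its FPKM in KO 1, 13.0% and 9.81% in KO 2 and KO 3, and 19.3% to 22.98% in the libraries labelled WT. Pantr2, which shares the assembled locus, stood at 5.37, 0 and 0.251 FPKM in the libraries labelled KO and at 0, 0 and 6.21 FPKM in those labelled WT.

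Dlx6os1, an RNA antisense to Dlx6 that marks interneuron precursors, stood at 0.046, 0 and 0.013 FPKM in the libraries labelled KO and at 0 in all 3 labelled WT. These values amount to 6.04 and 2.01 estimated reads. Its neighbours were also low, though above it on average: Dlx5 had 0.123, 0 and 0.087 FPKM in the libraries labelled KO and 0.147, 0 and 0.231 FPKM in those labelled WT, and Dlx6 had at most 0.131 FPKM in a library labelled KO and 0.210 FPKM in one labelled WT. On its transcript of 4608 bases, 3 reads would give between 0.020 and 0.023 FPKM in the libraries labelled KO and between 0.018 and 0.022 FPKM in those labelled WT, so Dlx6os1 was not detectable above that level in most libraries.

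Rmst, which binds SOX2 protein in human neural cells, stood at 0, 0 and 0.011 FPKM in the libraries labelled KO and at 0, 0 and 0.199 FPKM in those labelled WT. The highest value, in WT 3, stood for 7.47 estimated reads, and a library's 3 reads on the longest Rmst isoform are worth 0.032 to 0.037 FPKM among those labelled KO and 0.029 to 0.036 FPKM among those labelled WT.

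Miat is a nuclear RNA of neural progenitors and neurons, on chromosome 5. It stood at 0.517, 0.516 and 0.561 FPKM in the libraries labelled KO and at 0.791, 1.08 and 1.32 FPKM in those labelled WT. All 3 libraries labelled KO lay below all 3 labelled WT, with means of 0.531 ± 0.026 and 1.07 ± 0.267 FPKM (SD, n = 3 each). Over all tested genes, which do not include Miat, 33.3% did not overlap in either direction. An exact two-sided permutation test of Miat alone gave p = 0.1, the smallest that 3 against 3 libraries allow. In limma without a filter on low values its log2 fold change came to -0.42 (SE 0.16, adjusted p = 0.323), with an unadjusted p of 0.0441. In that fit, 4052 of 27694 genes had an unadjusted p under 0.05. Over the 10 RNAs the exact p ran from 0.1 to 1.

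The order of the Miat values depended on which isoforms were counted. The long isoform ENSMUST00000182953, of 9163 bases, had 0, 0.469 and 0.561 FPKM in the libraries labelled KO and 0.306, 1.08 and 1.32 FPKM in those labelled WT, so that WT 1 lay below 2 of the libraries labelled KO. In WT 1, 61.3% of the FPKM came from a short isoform of 747 bases, ENSMUST00000182258. In estimated reads, which are not per length, Miat had 128, 133 and 167 in the libraries labelled KO and 91.6, 307 and 439 in those labelled WT.

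**Figure D4:**
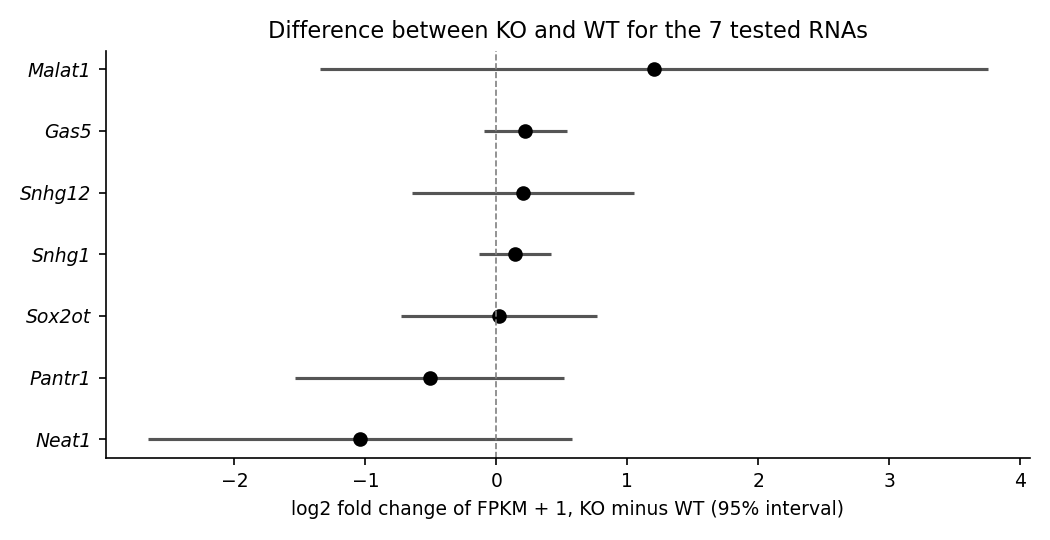
Log2 fold change of FPKM + 1, libraries labelled KO minus those labelled WT, for the 7 tested RNAs, with 95% intervals from limma. Each interval holds 0, and that of Malat1 (-1.34 to 3.75) is far wider than that of Snhg1 (-0.14 to 0.41).

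The tested RNAs differed in how well the replicates held together. The SD within groups of log2(FPKM + 1) was 0.13 for Snhg1 and 0.16 for Gas5, below the median of all tested genes of 0.23. It was 0.44 for Sox2ot, 0.49 for Snhg12, 0.61 for Pantr1, 0.96 for Neat1 and 1.54 for Malat1. For Snhg1, 23.7% of tested genes had a smaller SD, and for Gas5 32.1% did.

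**Figure D5:**
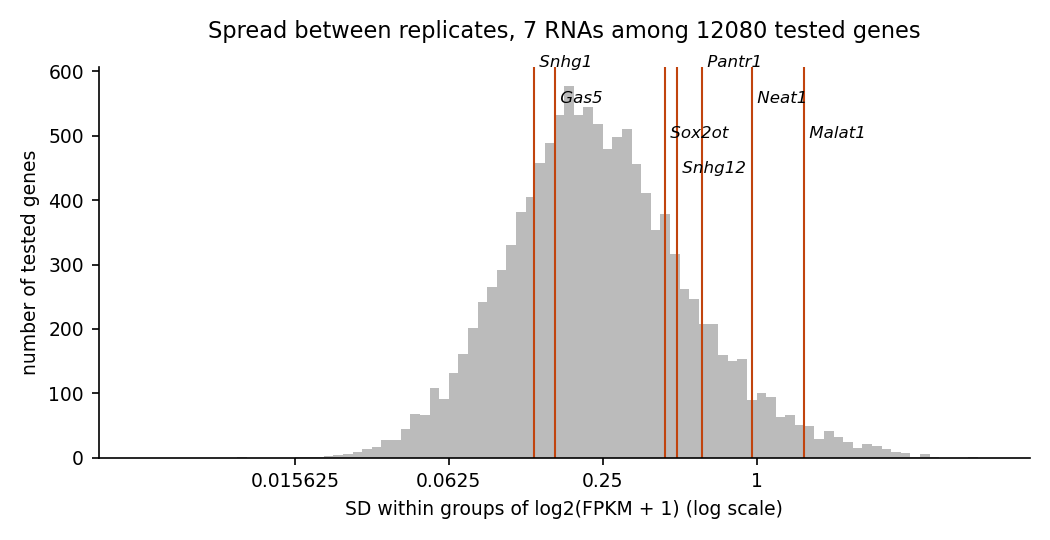
Number of tested genes by their SD within groups of log2(FPKM + 1), on a log axis, with lines at the 7 RNAs. Snhg1 (0.13) and Gas5 (0.16) lie left of the peak of the distribution and Malat1 (1.54) near its right end.

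Further long noncoding RNAs were read from a list of 52 symbols, of which 43 were in the table and 24 could be tested. None was called (smallest adjusted p = 0.0892, limma), and 6 of the 24 had an unadjusted p under 0.05, against 24.6% of all tested genes. Of these 24, 8 had a positive and 16 a negative fold change, and the median was -0.18, against -0.020 over all tested genes. Hotairm1, from the HOXA cluster, was at 4.56, 3.49 and 6.80 FPKM in the libraries labelled KO and 1.95, 2.04 and 2.55 FPKM in those labelled WT (adjusted p = 0.0892, limma), and shares its assembled locus with another gene. Tug1, a widely expressed RNA, was at 46.2, 49.9 and 50.9 FPKM in the libraries labelled KO and 20.3, 21.3 and 43.4 FPKM in those labelled WT (adjusted p = 0.147, limma). With a library left out, Tug1 passed in 1 of 6 fits, that without WT 3 (adjusted p = 0.0143, highest of the 6 0.302, limma). Hotairm1 and Tug1 had the smallest p of the 24, and for both the libraries labelled KO lay above those labelled WT. Of the 24, 2 had all libraries labelled KO higher and 4 had all lower. Over all tested genes, 33.3% did not overlap.

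Of 16 neighbours and partner genes of the 10 RNAs, 11 were tested, 1 was called higher and 0 lower, with a median log2 fold change of 0.094. The called gene was Slc3a2, described beside Snhg1. Of all 12080 tested genes, the libraries labelled KO had 3.65% called higher and 3.25% called lower.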

How the data were processed

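The authors deposited 1 isoform table with FPKM for each isoform and library, and its coverage signal (reads over a base on average, as sequenced), per the file headers. Per the submitters' processing notes, StringTie, TopHat2, Bowtie2, FastQC and cutadapt were used (versions not given). No source used here names the genome build. Columns named NT were taken as WT of the same number, since no other samples were left for them. All value columns were used (0 unused). Of reference isoforms of the 10 RNAs found in GENCODE M21 (GRCm38), 95.6% had identical coordinates.

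FPKM was summed per gene symbol over isoforms with class codes 0, c, j, e and o. Estimated reads are coverage times length over 150 bases. Genes and isoforms with a mean of at least 1 FPKM were tested with limma 3.58.1 (R 4.3.3) on log2(FPKM + 1) with a mean-variance trend, adjusted over 12080 genes or 27399 isoforms, and called at 0.05. Such fold changes understate those of low genes. Tables used Python 3.11.15, pandas 2.3.3 and numpy 2.4.6. The procedure was tested on simulated data. The members and lists were chosen with earlier results of these data known. The rule named the 10 RNAs, Vim, up to 3 leading isoforms each, up to 4 called genes of each list or its 2 with the smallest p, and Sox2, Dlx5, Dlx6 and Pou3f3. Gm20646, Pantr2, Gm28006, Rn7sk, 1700020I14Rik, single marker genes and further isoforms were named outside it, after their values were seen.

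Alternatives were other pseudocounts, filters, scalings and variance models, a replicate block, leaving out each library, other isoform sums, voom on estimated reads, and gene sets without mitochondrial, small RNA or ribosomal genes.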

Additional observations from a re-analysis of the deposited data

How the results depend on the processing

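Over 150 alternative fits of the 7 tested RNAs, none was called (limma adjusted p from 0.0638 to 0.994), and 143 kept their direction. The other 7 reversed. Snhg1 was at a log2 fold change of -0.11 with the highest isoform only, and Snhg12 at -0.034 without KO 1 (highest with a library left out, 0.60 without KO 2). Sox2ot was at -0.33 without KO 2, -0.0055 without WT 1, -0.032 without WT 2, -0.24 with every class code and -0.057 with estimated reads and voom (highest with a library left out, 0.20 without KO 1), and the cause was not tested. Called genes numbered 235 with reference transcripts only, 128 with the highest isoform only and 542 with every class code, against 833, as other isoforms entered the sums. Leaving out a library gave 286 to 782 called genes and 1 to 31 called isoforms, against 38 isoforms with all libraries. A filter of 5 FPKM gave 75 isoforms, with fewer tested. The labels give no pairing by replicate number, and correlations of deviations for equal numbers were 0.012, -0.0031 and 0.065. The last, for KO 3 with WT 3, was the highest of all pairs, but not every library correlated best with its own number. With 3 libraries a group, these values cannot show whether equal numbers share a preparation. With a replicate block, limma called 15 genes (2435 at an unadjusted p under 0.05) and 0 isoforms (2321 isoforms at an unadjusted p under 0.05), and the calls of Slc3a2, Nop56 and Hspa8 were lost (adjusted p = 0.0937, 0.0807 and 0.102). The scalings moved the median of all tested genes by less than 0.1 on the log2 scale. With 3 reads worth 0.0040 to 0.113 FPKM on the longest isoform of each RNA, depth limits what can be said of Rmst and Dlx6os1.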

Other observations

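Isoforms in the introns of Miat, Pantr1 and Sox2ot, left out of the sums above, had lower values in each library labelled KO than in any labelled WT. For Pantr1, 13 such isoforms summed to 3.94, 4.60 and 5.66 FPKM in the libraries labelled KO and 9.23, 16.5 and 8.81 FPKM in those labelled WT. For Miat, 3 summed to 0.178, 0.358 and 0.0082 FPKM in the libraries labelled KO and 1.84, 3.14 and 1.21 FPKM in those labelled WT. For Sox2ot, 7 summed to 0.591, 0.278 and 1.14 FPKM in the libraries labelled KO and 3.64, 6.31 and 2.16 FPKM in those labelled WT. The span of these 7 ends at 34651236, inside the Sox2 exon (34650405 to 34652461). How much of their sum lies at Sox2 was not tested. Over all 14208 intronic isoforms of the table, the sum was 4975, 5953 and 5790 FPKM in the libraries labelled KO and 6958, 26416 and 5095 FPKM in those labelled WT, so that there the groups overlapped and WT 2 stood apart. These sums were chosen after their values were seen and were not tested. How many other genes have intronic sums that separate in this way was not counted. Among the exonic sums of all tested genes, 33.3% did not overlap between the groups.

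The noncoding RNA 1700020I14Rik, which shares its assembled locus with another gene, was at 2.73, 2.38 and 2.16 FPKM in the libraries labelled KO and 44.4, 25.9 and 2.90 FPKM in those labelled WT (adjusted p = 0.188, limma). With a library left out, it passed in 1 of 6 fits, that without WT 3 (adjusted p = 0.0143, highest of the 6 0.349, limma). Rn7sk, an abundant RNA of 1 exon, was at 5079, 4555 and 0 FPKM in the libraries labelled KO and at 4596, 5557 and 0 FPKM in those labelled WT. Its zeros in KO 3 and WT 3 are listed values only. The short annotated RNA Gm28006, which lies within Neat1, stood at 3.33, 2.82 and 3.00 FPKM in the libraries labelled KO and at 2.10, 0 and 0 FPKM in those labelled WT, with its zeros in the 2 libraries where Neat1 was highest.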
